A study of Mus musculus with 8 samples.

Results

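The levels of 10 genes that encode building blocks and regulators of microtubules were followed across the tumours: 4 beta-tubulins (Tubb3, Tubb2b, Tubb5 and Tubb6), 2 alpha-tubulins (Tuba1a and Tuba1c), 3 stathmins (Stmn1, Stmn2 and Stmn3) and doublecortin (Dcx). They were listed by symbol, and 10 of 10 were found among the 20608 symbols of the bulk count table and among the 27998 genes of each single-cell matrix. All samples came from brain tumours of mice labelled Patched 1 deficient, in which loss of the Sonic Hedgehog receptor gives rise to medulloblastoma, a tumour of cerebellar granule cell precursors. A single 10x Genomics library held cells of a primary tumour and a single one held cells of a tumour that had relapsed, taken at 3 weeks, so the single-cell values have no replicates and no test. Bulk RNA-seq was made from cells labelled astrocytes, 3 libraries from stroma A and 3 from stroma B. The labels do not say which stroma belongs to which tumour, what gate sorted the cells, how old the mice were or what drives the deletion. The free-text description of the relapsed library calls it primary, against its title and source label, which were followed here.

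Microtubules are polymers of alpha- and beta-tubulin dimers, and each tubulin is encoded by several genes whose proteins differ mainly in their acidic C-terminal tails. Dividing cells use microtubules for the spindle, whereas young neurons bundle them to migrate and to extend axons. Stathmins bind free tubulin dimers and favour depolymerisation, and doublecortin binds and stabilises the lattice in migrating young neurons. In the developing cerebellum, granule cell precursors divide, leave the cycle and then extend parallel fibres and migrate, so these genes are widely used to mark that passage.

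The deposited matrices held 9164 barcodes with a median of 5404 UMIs (56332247 in all) for the primary tumour and 7852 with a median of 7230 (69403567 in all) for the relapsed tumour, and 93 barcode sequences occurred in both. Clusters made without the microtubule genes were named by their markers as granule precursors (3147 primary and 1836 relapsed cells), cycling granule cells (2371 and 3487), differentiating granule cells (1857 and 1589), astrocyte-like cells (64 and 64), oligodendrocyte precursor-like cells (179 and 34) and microglia and macrophage-like cells (191 and 29). Each granule cluster held cells of 1 library only, apart from 1 primary cell among the 726 relapsed cells of cluster 10, so a difference between the tumours and a difference between the libraries cannot be told apart. The bulk libraries held 6718165 to 11798735 counted reads, and nothing in the labels says that they came from separate animals, so their p-values measure only the spread between these samples.

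By the mm10 annotation (GENCODE M21), the beta-tubulins other than Tubb6 lie at chr8:123411424-123422015 (Tubb3, plus strand), chr13:34126748-34130466 (Tubb2b, minus) and chr17:35833921-35838306 (Tubb5, minus). The alpha-tubulins lie near each other at chr15:98949837-98953703 (Tuba1a, minus) and chr15:99029891-99038110 (Tuba1c, plus). The stathmins lie at chr4:134468320-134473843 (Stmn1, plus), chr3:8509360-8561606 (Stmn2, plus) and chr2:181306459-181314500 (Stmn3, minus), and Dcx at chrX:143855842-143933311 (minus).

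The ends of 3 beta-tubulin coding sequences are shown first because they let reads of these genes be told apart. The last 60 coding bases, all in exon 4 and read 5′ to 3′ from mm10 up to the stop codon, were taken at chr17:35834982-35835041 on the minus strand (Tubb5), chr13:34127471-34127530 on the minus strand (Tubb2b) and chr8:123421623-123421682 on the plus strand (Tubb3), with capitals at the 45 positions that differ when the sequences are aligned from the stop codon without gaps.
Tubb5: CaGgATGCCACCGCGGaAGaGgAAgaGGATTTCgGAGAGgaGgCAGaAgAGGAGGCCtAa
Tubb2b: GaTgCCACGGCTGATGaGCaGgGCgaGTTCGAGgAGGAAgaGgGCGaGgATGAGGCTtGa
Tubb3: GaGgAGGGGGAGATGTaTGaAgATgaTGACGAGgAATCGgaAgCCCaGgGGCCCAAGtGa
No pair of these shared more than 31 of the 60 bases. Over whole transcripts, the share of 100-base windows that also occur in another gene was 65.1% for Tuba1a, 53.4% for Tuba1c, 69.5% for Tuba1b, 27.8% for Tubb2b and 26.1% for Stmn1, and it was 0 for the other 6 members. In the last 500 bases, where 3′ single-cell reads fall, it was 50.9% for Tuba1a and 64.1% for Tuba1c, but 0 for Tubb2b and Stmn1. Values of the alpha-tubulins are therefore less certain than those of the other members, in a way that depends on how reads matching several genes were counted, which is not given in the sources used here.

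In both tumours, the neuronal tubulins, Stmn2 and Dcx were at their highest in differentiating granule cells. Levels are given as counts per 1000000 summed UMIs of a class (CPM), ratios with exact 95% intervals that cover counting error only, and a gene counts as measured where at least 1 of the classes compared reached 50 CPM. Of 8 measured members, 5 (Tubb3, Tubb2b, Tuba1a, Stmn2 and Dcx) were at least 2-fold higher in differentiating than in precursor cells of the primary tumour, and the same 5 of 8 in the relapsed tumour. Across all measured genes 7.85% were that much higher in the primary library, and 8.12% in the relapsed one. No measured member was 2-fold lower, against 5.01% and 5.29% of all measured genes. Tubb6, too low to be measured, was lower in differentiating cells of both tumours, on 4 and 8 UMIs there. The median log2 ratio of the measured members was 1.36 for the primary and 1.57 for the relapsed tumour, against 0.06 and 0.04 for all measured genes.

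Tubb3, the beta-tubulin restricted largely to neurons, stood in the primary tumour at 837 CPM in precursors, 475 in cycling and 2947 in differentiating cells, and in the relapsed tumour at 461, 505 and 1922. The differentiating to precursor ratio was 3.52 (3.45 to 3.59) in the primary and 4.17 (4.04 to 4.29) in the relapsed tumour. Its order over classes was thus the same at the top in both, with precursors and cycling cells changing places below. When every cell was thinned to 2000 UMIs, a Tubb3 UMI was found in 97.7% of primary differentiating cells, 58.8% of precursors and 17.3% of microglia and macrophage-like cells, which should lack it. The relapsed shares were 90.3%, 50.4% and 3.45%. The share in microglia was taken as a background, and the granule classes lay above it in both libraries. Where these Tubb3 UMIs in microglia came from was not tested.

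Tubb2b, a beta-tubulin of migrating and young neurons, gave 1030 CPM in precursors, 814 in cycling and 3197 in differentiating cells of the primary tumour and 956, 1176 and 3580 in the relapsed tumour. Its ratios of 3.10 (3.05 to 3.16) and 3.75 (3.67 to 3.82) came close to those of Tubb3. Tubb5, the beta-tubulin found broadly in dividing and immature cells, changed less, with 2883, 4370 and 4324 CPM in the primary and 2326, 4339 and 3481 in the relapsed tumour. Its differentiating to precursor ratio was 1.5 in both. Tubb6, a beta-tubulin not typical of neurons, was nearly missing from the lineage, with 1.17 and 2.50 CPM in precursors (22 and 32 UMIs), 8.66 and 13.7 in cycling cells, and 0.479 and 0.903 in differentiating cells (4 and 8 UMIs).

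The alpha-tubulins divided between the classes. Tuba1a, the main alpha-tubulin of young neurons, stood at 3900 CPM in precursors, 3668 in cycling and 9670 in differentiating cells of the primary tumour, and at 2839, 4176 and 7399 in the relapsed tumour, with differentiating to precursor ratios of 2.48 (2.45 to 2.50) and 2.61 (2.57 to 2.64). Tuba1b, an alpha-tubulin gene that is no member of the set and shares sequence with Tuba1a, went the other way between those classes, from 1496 CPM in precursors to 644 in differentiating cells (a ratio of 0.430) in the primary and from 1197 to 469 (0.392) in the relapsed tumour. Thus, of these alpha-tubulin genes, one was higher and the other lower in differentiating cells, in each library.

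Stmn2, a stathmin of neuronal growth cones, followed Tubb3. It had 655 CPM in precursors, 411 in cycling and 2337 in differentiating cells of the primary tumour and 335, 383 and 1780 in the relapsed tumour. Its ratios were 3.57 (3.49 to 3.65) and 5.32 (5.14 to 5.50), the latter the largest of the 8 measured members. Stmn1, the ubiquitous stathmin also known as oncoprotein 18, was spread more evenly, with 1739, 2816 and 2775 CPM in the primary and 1498, 2732 and 2005 in the relapsed tumour. Stmn3, a neuronal stathmin, differed by less than 2-fold between these classes, with 465, 419 and 782 CPM against 386, 402 and 688. The 3 stathmins were therefore not alike: the differentiating to precursor ratio was 1.6 and 1.34 for Stmn1 and 1.68 and 1.78 for Stmn3.

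Dcx had 110 CPM in precursors, 71.7 in cycling and 290 in differentiating cells of the primary tumour, and 81.1, 74.2 and 274 in the relapsed tumour. The ratios were 2.65 (2.49 to 2.81) and 3.38 (3.14 to 3.64). At 2000 UMIs a cell, a Dcx UMI was found in 45.3% of primary and 40.2% of relapsed differentiating cells, in 20% and 13.6% of precursors, and in 3.14% and 3.45% of microglia and macrophage-like cells. Dcx RNA was thus above the level of that class in precursors as well as in differentiating cells.

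**Figure D1:**
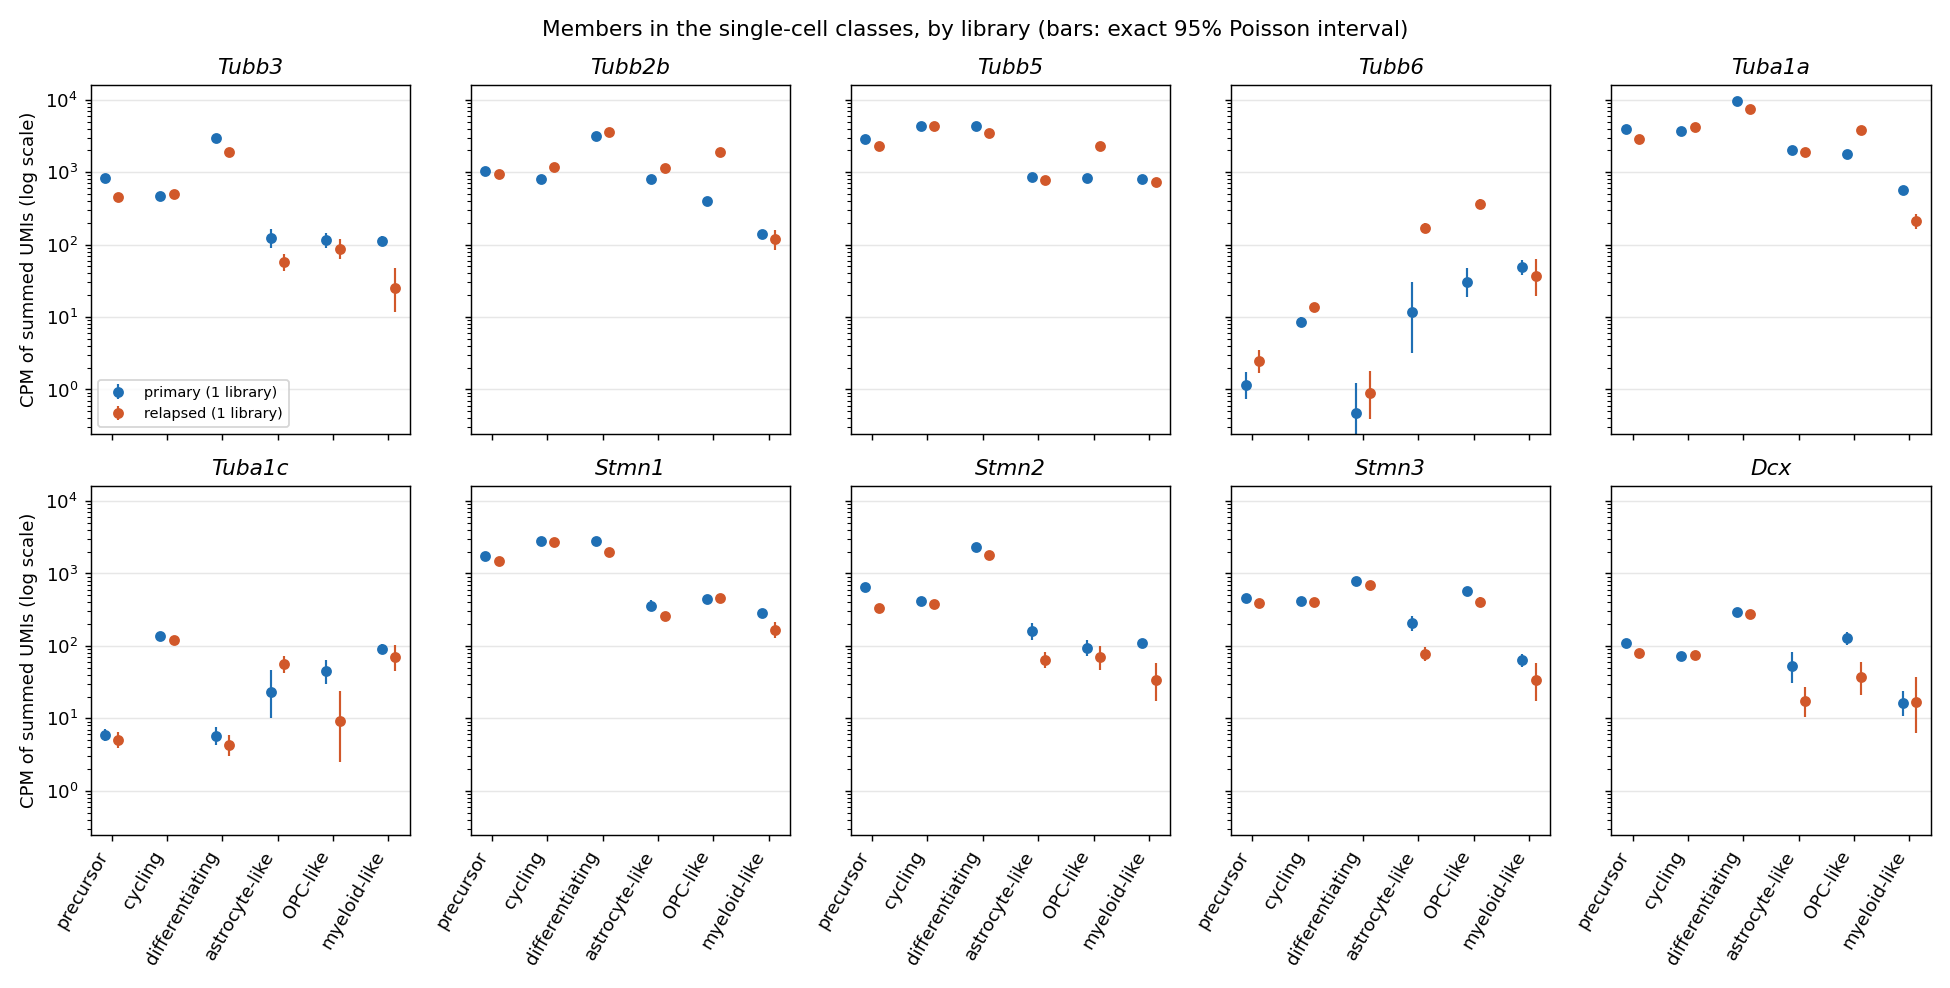
Levels of the 10 genes (CPM of summed UMIs, log axis) in the cell classes of the primary and the relapsed library; bars are exact 95% intervals of the counting error. Tubb3, Tubb2b, Tuba1a, Stmn2 and Dcx peak in differentiating granule cells of both libraries, while Tuba1c peaks in cycling cells.

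The precursors of the primary tumour were of 2 kinds, and the choice of kind moved the ratios of Tubb3 by more than 1.5 times. Cluster 0 (2249 cells) had 509 CPM of Tubb3, 791 of Tubb2b, 3114 of Tuba1a and 527 of Stmn2, whereas cluster 5 (898 cells) had 1612, 1593, 5755 and 957. Every one of these genes was higher in cluster 5. Without cluster 5, an alternative added after the data were seen, the primary differentiating to precursor ratio was 5.79 for Tubb3, 4.43 for Stmn2, 4.04 for Tubb2b, 3.11 for Tuba1a and 3.09 for Dcx, and the count stayed at 5.

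Within the differentiating class, the genes were graded. In the primary tumour, cluster 3 (1366 cells) and cluster 13 (490 cells) had 8565 and 13407 CPM of Tuba1a, 2653 and 5033 of Tubb2b, 2105 and 3119 of Stmn2, and 250 and 428 of Dcx. In the relapsed tumour, clusters 8 (863 cells) and 10 (726 cells) had 5237 and 10139 CPM of Tuba1a, 2067 and 5497 of Tubb2b, 1200 and 2515 of Stmn2, and 181 and 392 of Dcx. The same step was seen for these 4 genes in each library. Tubb3 made a small step in the primary (2874 to 3197 CPM) and a larger one in the relapsed tumour (1491 to 2468 CPM).

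**Figure D2:**
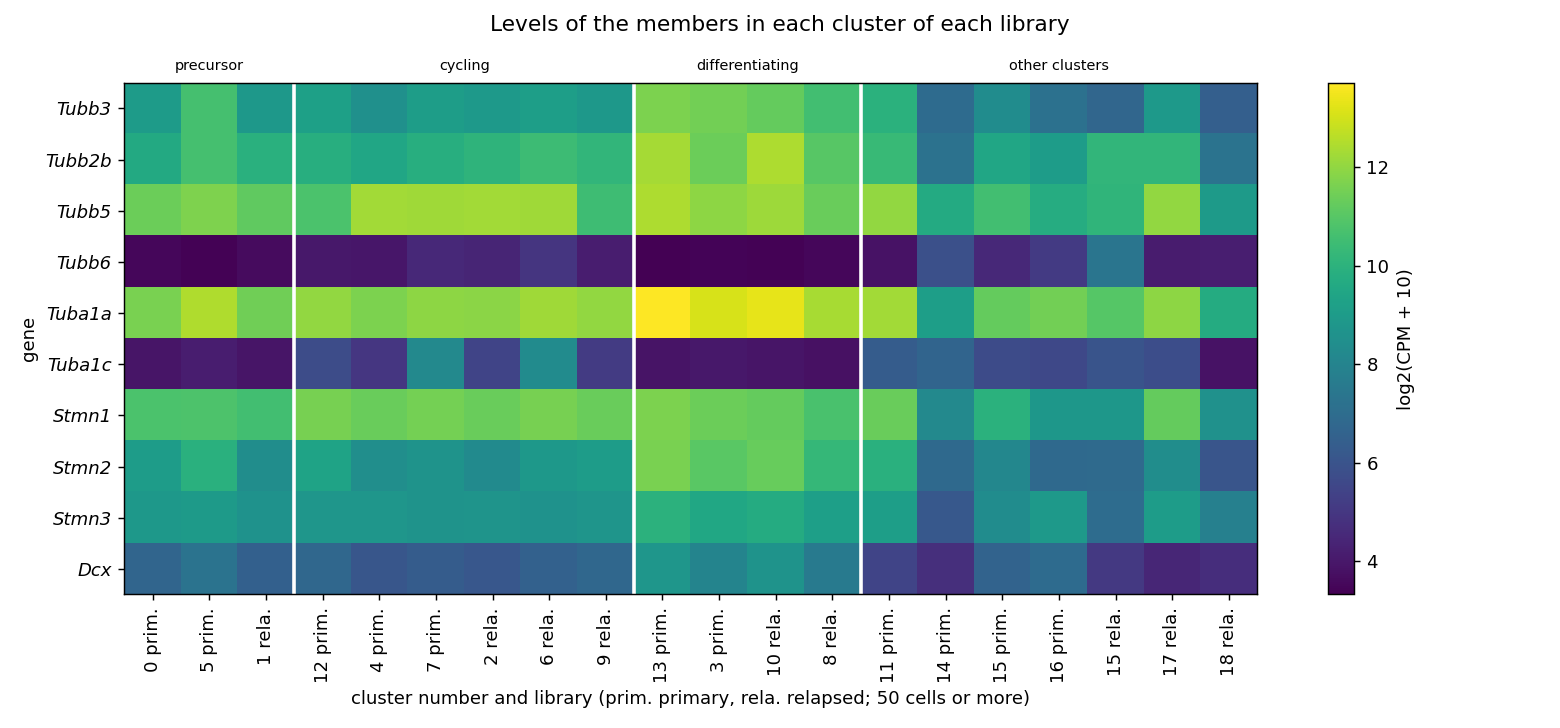
Heat map of log2(CPM + 10) for each gene (rows) in each cluster of each library with 50 cells or more (columns, in order of class). Tubb3, Tubb2b, Tuba1a, Stmn2 and Dcx are bright in the differentiating clusters 13, 3, 10 and 8, precursor cluster 5 is brighter than cluster 8 for Tubb3 (1612 against 1491 CPM) and Tuba1a (5755 against 5237 CPM), and Tuba1c is brightest in clusters 7 and 6.

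Cycling granule cells were marked by a single measured member, the alpha-tubulin gene Tuba1c. It was at 5.88 CPM in precursors, 138 in cycling and 5.75 in differentiating cells of the primary tumour, and at 5.0, 120 and 4.29 in the relapsed tumour. The cycling to precursor ratio was 23.5 (19.5 to 28.7) in the primary and 24.0 (18.7 to 31.2) in the relapsed tumour. Tuba1c was the 1 of 9 measured members that was at least 2-fold higher, in each library, against 4.57% and 4.22% of all measured genes. Stmn1 (1.62 and 1.82) and Tubb5 (1.52 and 1.87) were higher by less than 2-fold in both. Tubb6, too low to be measured, was also higher in cycling than in precursor cells of both tumours. It was at 8.66 against 1.17 CPM in the primary (160 and 22 UMIs) and 13.7 against 2.50 CPM in the relapsed tumour (473 and 32 UMIs).

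Tuba1c was concentrated in 1 cluster of cycling cells in each tumour. It was at 285 CPM in cluster 7 of the primary and 316 CPM in cluster 6 of the relapsed tumour, both with the mitotic genes Ccnb1, Cdc20 and Ube2c among their top genes. It was at 21.1 and 34.4 CPM in clusters 4 and 2, which had replication histone genes at the top, and at 43.9 and 25 CPM in clusters 12 and 9. Clusters 12 and 9, with Ccnb2 and Cenpa among their top genes, had little Top2a (42.1 and 19.0 CPM), and there Tubb5 was lower, at 1739 and 1427 CPM, than in clusters 4 and 7 (4944 and 4769 CPM) or 2 and 6 (4932 and 4820 CPM). Tuba1b was lower there as well, at 1059 and 524 CPM. In these 2 clusters Tubb5 was also below its level in the precursors of the same library.

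For the 8 other members measured, the cycling to precursor ratio of the 2 tumours lay on different sides of 1 in 5 cases. Tubb3 gave 0.567 in the primary and 1.09 in the relapsed tumour, Stmn2 0.627 and 1.15, Tubb2b 0.791 and 1.23, Tuba1a 0.940 and 1.47, and Stmn3 0.901 and 1.04. Without cluster 5 the primary values became 0.933 for Tubb3, 0.779 for Stmn2, 1.03 for Tubb2b and 1.18 for Tuba1a. Dcx was lower in cycling cells of both, at 0.654 and 0.916.

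Promoter sequences of RefSeq, build GRCm38.p6, which run from 250 bases before to 50 after a gene's start, were used for 6 of 10 members. Tubb6 was left out of this search. Those of Tuba1a (chr15:98953452-98953751, minus strand) and Tuba1c (chr15:99029641-99029940, plus strand) are shown because these 2 members peaked in different classes; the capitals are CCAAT on either strand, the box bound by NF-Y.
Tuba1a promoter: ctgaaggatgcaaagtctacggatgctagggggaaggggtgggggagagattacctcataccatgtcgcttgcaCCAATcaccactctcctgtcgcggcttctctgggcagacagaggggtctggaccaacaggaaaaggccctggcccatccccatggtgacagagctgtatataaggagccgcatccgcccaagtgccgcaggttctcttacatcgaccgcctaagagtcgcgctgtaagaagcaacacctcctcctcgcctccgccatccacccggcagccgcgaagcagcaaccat
Tuba1c promoter: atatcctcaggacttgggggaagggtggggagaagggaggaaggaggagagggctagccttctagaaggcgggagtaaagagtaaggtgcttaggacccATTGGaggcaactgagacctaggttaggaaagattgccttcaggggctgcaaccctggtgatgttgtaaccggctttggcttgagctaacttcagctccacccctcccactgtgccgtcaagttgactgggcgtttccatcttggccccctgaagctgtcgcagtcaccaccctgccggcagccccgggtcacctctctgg
CCAAT was found in 5 of the 6 members' promoters and in 37.9% of 27025 promoters of that length. The E-box CANNTG was in 4 of the 6, against 72.1%, and TTTGAA or TTCGAA, the core of the cell-cycle CHR element, searched on both strands, was in 0 of the 6, against 19.4%. CCAAT is thus held by the promoters of both alpha-tubulins, and a match is a description of the letters only.

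Glia held less Tubb3 and Stmn2 than any granule class, whereas Tubb2b and Tuba1a differed between glial classes and Stmn3 stood out in oligodendrocyte precursor-like cells. Tubb3 was at 123 and 57.1 CPM in primary and relapsed astrocyte-like cells, 115 and 88.0 in oligodendrocyte precursor-like cells, and 113 and 25.3 in microglia and macrophage-like cells. Stmn2 was at 158 and 64.4, 93.6 and 69.5, and 109 and 33.7 CPM in the same order. The 3 primary glial values of Tubb3 overlapped in their intervals, so they have no order and none stood above the microglia, which serve as background. In the relapsed tumour the oligodendrocyte precursor-like value (interval 62.3 to 121) stood above that of microglia (11.6 to 48.0). Stmn3, in contrast, was at 568 CPM (511 to 628) in primary and 408 CPM (350 to 473) in relapsed oligodendrocyte precursor-like cells, against 63.6 and 33.7 CPM in microglia. At 2000 UMIs a cell that was 67.0% and 64.7% of the oligodendrocyte precursor-like cells with a Stmn3 UMI, against 13.6% of primary microglia and 0 of 29 relapsed ones (exact upper limit 11.9%).

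Tubb2b was at 794 and 1146 CPM in primary and relapsed astrocyte-like cells, 394 and 1876 CPM in oligodendrocyte precursor-like cells, and 140 and 118 CPM in microglia, against 1030 and 956 CPM in precursors. Tuba1a was at 2030 and 1927 CPM in astrocyte-like cells, 1796 and 3864 in oligodendrocyte precursor-like cells, and 563 and 211 in microglia. Both genes were therefore lowest in microglia among the classes of each library. Tubb5 was at 867 and 771, 828 and 2319, and 810 and 725 CPM, and Stmn1 at 360 and 262, 448 and 452, and 283 and 168 CPM. Dcx was at 52.7 and 17.5 CPM in astrocyte-like cells, 127 and 37.1 in oligodendrocyte precursor-like cells, and 16.4 and 16.9 in microglia. The Dcx level of primary oligodendrocyte precursor-like cells (interval 101 to 158) overlapped that of primary precursors (105 to 115).

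Between the tumours, no measured member was 2-fold apart in any granule class. The counts were 0 of 8 in precursors (6.68% of all measured genes were), 0 of 9 in cycling cells (5.3%) and 0 of 8 in differentiating cells (7.28%). Tubb6, too low to be measured there, was at 1.17 CPM in primary and 2.50 CPM in relapsed precursors (22 and 32 UMIs). The widest gaps among measured members were in precursors, for Stmn2, at a relapsed to primary ratio of 0.511, and Tubb3, at 0.551. Without cluster 5 these were 0.635 and 0.906. Most other differences in precursors were also towards the primary tumour, such as Tuba1a at 0.728. In differentiating cells Tubb3 stood at 0.652 and Stmn1 at 0.723.

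In the glial classes, more members were apart, on few cells and unequal depth. The cells compared mostly came from different clusters: apart from 1 primary cell, astrocyte-like cells came from separate subdivisions of cluster 15 in each tumour, and oligodendrocyte precursor-like cells from cluster 16 in the primary and cluster 19 in the relapsed tumour. Tubb6 in astrocyte-like cells was at 11.7 CPM (4 UMIs) in the primary and 171 CPM (186 UMIs) in the relapsed tumour, a ratio of 14.6 (5.61 to 54.2). In oligodendrocyte precursor-like cells it was at 30.7 and 368 CPM, a ratio of 12. Tubb6 was thus more abundant in these classes of the relapsed library than in any granule class of either. In microglia it was at 48.5 and 36.5 CPM, with overlapping intervals. Median UMIs per cell of the primary and the relapsed tumour were 4612 and 16390 for astrocyte-like, and 3442 and 12840 for oligodendrocyte precursor-like cells. At 2000 UMIs a cell, a Tubb6 UMI was in 4.69% of primary and 23.4% of relapsed astrocyte-like cells and in 4.47% and 41.2% of oligodendrocyte precursor-like cells.

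Counting all members, 6 of 10 were 2-fold apart in astrocyte-like cells (20% of all measured genes): Tubb6 and Tuba1c (2.40) were higher and Tubb3 (0.464), Stmn2 (0.407), Stmn3 (0.372) and Dcx (0.332) lower in the relapsed tumour. With the mean over cells in place of the sum, the count was 3, as Tubb3, Stmn2 and Dcx no longer reached 2-fold. The lowest log2 ratio of Tuba1c over the alternatives was 0.80, short of 2-fold. In astrocyte-like cells thinned to equal depth, the shares with a UMI did not differ for Tuba1c (4.69% in each tumour) and Tubb3 (9.38% in each). Primary and relapsed shares were 23.4% and 10.9% for Stmn2, 37.5% and 15.6% for Stmn3, and 4.69% and 1.56% for Dcx. The summed CPM of 8 granule lineage markers in this class was 1145 in the primary and 559 in the relapsed tumour, next to 8506 and 9464 for the astrocyte markers and 223 and 594 for the pericyte markers, and the part of these other cells in the 6 differences was not tested. In oligodendrocyte precursor-like cells 5 of 9 measured were apart (30.8%), with Tubb2b (4.76), Tubb5 (2.80), Tubb6 and Tuba1a (2.15) higher and Dcx (0.291) lower. With likely doublets kept, the log2 ratios of Tubb5 (0.97) and Tuba1a (0.73) in this class no longer reached 2-fold, while those of Tubb3 (-1.14) and Stmn2 (-1.60) did. In that class, the granule lineage markers summed to 256 and 269 CPM and the differentiating neuron markers to 793 and 568 CPM. The granule precursor markers summed to 1071 and 1918 CPM, the cycling markers to 906 and 1251 and the class's own markers to 7666 and 3058. The part of other cells in the result was not tested. In microglia and macrophage-like cells 3 of 8 measured were apart (14.7%), all lower in the relapsed tumour: Tubb3 (0.224), Stmn2 (0.310) and Tuba1a (0.374). The granule lineage markers there were at 192 and 98.3 CPM.

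The other microtubule genes, 76 in 5 lists, moved partly with the members. Of 5 other tubulins measured, Tubb2a (4.63 and 5.09) and Tubb4a (3.27 and 3.34) were at least 2-fold higher in differentiating than precursor cells of the primary and the relapsed tumour, and Tuba1b was lower. Tuba1b (2.03 and 2.11) and Tubb4b (3.56 and 3.44) were at least 2-fold higher in cycling cells. Of the 2 other stathmin and doublecortin relatives measured, Stmn4, a further neuronal stathmin, was higher in differentiating cells (5.13 and 4.91), and Dclk1, a kinase of the doublecortin family, was lower in the primary tumour only by the 2-fold rule (0.483 and 0.775). The tubulin folding cofactors were flat, with 0 past 2-fold in either contrast and Tbca at 1.03 and 1.10 and Tbcb at 1.15 and 1.18 in differentiating cells.

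Among the microtubule-associated proteins, 3 of 6 measured in primary and 3 of 7 measured in relapsed cells were higher in differentiating cells: Map1b (2.21 and 2.95), Map2 (3.07 and 2.46) and Mapt, which encodes tau (3.71 and 3.90). Mapre1, a plus-end binding protein, was not (1.36 and 1.39). In cycling cells the spindle factor Tpx2 (16.4 and 21.0), Ckap5 (5.06 and 4.84) and Nde1 (3.55 and 4.75) were the 3 that were at least 2-fold higher, of 7 and 9 measured. The list thus held neuronal genes that went with Tubb3 and Stmn2 and spindle genes that went with Tuba1c. Of the 3 modifying enzymes measured, the alpha-tubulin acetylase Atat1 was at 1.89 and 2.34 and the deacetylase Sirt2 at 1.31 and 1.32 in differentiating over precursor cells. Between the tumours, precursors had less Stmn4 (0.312) and Atat1 (0.435) in the relapsed library.

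Over 20 cluster-by-library units, which share 2 libraries, levels of the members were compared with those of 6012 genes by Pearson's r of log2(CPM + 10). Tubb3 and Stmn2 were closest to each other (r = 0.98), and both were nearest among other genes to Nhlh2 (0.96 and 0.97), Rltpr (0.96 for both) and Zfp423 (0.94 and 0.95). Tuba1a and Tubb2b had r = 0.95 with each other and had Uchl1 among their nearest genes (0.96 and 0.93), together with Ddah2 and Cyth2 (0.95 for both) for Tuba1a and Dctn2 (0.94) and Zfp423 (0.93) for Tubb2b. Dcx was nearest to Klf7, Mau2 and Ank3, all at 0.97. Stmn1 was nearest to Nfyc (0.97), Hdac2 (0.97) and Cct7 (0.96), Stmn3 to Snrpn (0.93), Nxf1 and Sult4a1 (0.92 for both), and Tubb5 to H3f3a (0.92), Cog7 (0.91) and Hn1 (0.90). Tuba1c was nearest to Gas2l3 (0.90), Fam83d and Arl6ip1 (0.86 for both), and Tubb6 to Rhoq (0.91), Slc25a39 and Tagln2 (0.89 for both). Tubb6 was the member least like the rest, with r below 0 in 8 of 9 pairs, down to -0.80 with Stmn3.

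In the bulk libraries, 8 of 10 members had a higher fitted level in stroma B than in stroma A, but none passed the test. With edgeR's quasi-likelihood test and Benjamini-Hochberg adjustment over 14176 genes, 0 members were called higher (0.388% of all genes were) and 0 lower (0.275%), and 5 members had an unadjusted p under 0.05 (21.8% of all genes did). DESeq2 called 4 members, Stmn1, Stmn2, Tubb2b and Tubb5, where it called 11.7% of all genes. The median log2 difference of the members was 0.84, against -0.03 for all genes tested. The values per library follow as CPM, always in the order of replicates 1, 2 and 3.

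Tubb2b was at 275, 215 and 159 CPM in the stroma A libraries (217 ± 58.1, SD, n = 3) and at 399, 597 and 390 CPM in those of stroma B (462 ± 117, SD, n = 3). It was the 1 of 10 members with every stroma B library above every stroma A library, as were 14.2% of all genes. The log2 difference was 1.09 (SE 0.29), with an edgeR quasi-likelihood adjusted p of 0.116 (Benjamini-Hochberg). Tubb3 was at 82.2, 18.2 and 16.3 CPM for stroma A against 381, 524 and 40.2 CPM for stroma B. Libraries 1 and 2 of stroma B were high, whereas the third lay below the highest of stroma A. The log2 difference of 3.01 (SE 1.02) was the largest of the 10, with an edgeR adjusted p of 0.160. Leaving out stroma A replicate 1 gave 4.26, and leaving out the second library of stroma B gave 2.42.

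Stmn2 had the same shape, at 30.8, 12.8 and 10.2 CPM against 238, 123 and 16.2 CPM, as did Stmn1, at 101, 58.4 and 59.4 against 409, 193 and 79.1 CPM. In both, stroma B replicate 3 fell within the range of stroma A. The log2 differences were 2.80 (SE 0.90) for Stmn2 and 1.64 (SE 0.57) for Stmn1, with edgeR adjusted p of 0.150 and 0.168. Without stroma B replicate 1 they were 1.97 and 0.92, and without both libraries numbered 5 in their titles 1.67 and 0.77, while that of Stmn2 was 3.53 without stroma A replicate 1. Tubb5, at 1186, 776 and 611 against 2316, 1765 and 1164 CPM, overlapped only by its lowest stroma B and highest stroma A library, with a log2 difference of 1.03 (SE 0.37) and an edgeR adjusted p of 0.179. Dcx was at 274, 170 and 195 against 341, 450 and 218 CPM, a log2 difference of 0.66 (SE 0.32, edgeR adjusted p of 0.274), and the groups overlapped.

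The remaining members overlapped widely. Stmn3 was at 258, 192 and 149 against 198, 117 and 154 CPM, a log2 difference of -0.35 (SE 0.29), and was not called. Tubb6 was at 53.1, 94.7 and 61.4 against 20.2, 90.3 and 80.2 CPM, and the sign of its difference (-0.13, SE 0.53) turned under 4 alternatives. Tuba1a was at 513, 507 and 294 against 600, 455 and 364 CPM (0.11, SE 0.30), and its sign turned under 3 alternatives. Tuba1c was at 5.13, 8.12 and 7.64 against 13.2, 10.5 and 7.56 CPM (0.58, SE 0.39). Leaving out stroma B replicate 3 was the 1 omission under which members were called: Stmn1, Stmn2 and Tubb3, with 8.70% of all genes called in that fit. In every other fit with 1 library left out, 0 of all genes tested were called, so those fits do not set the members apart.

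**Figure D3:**
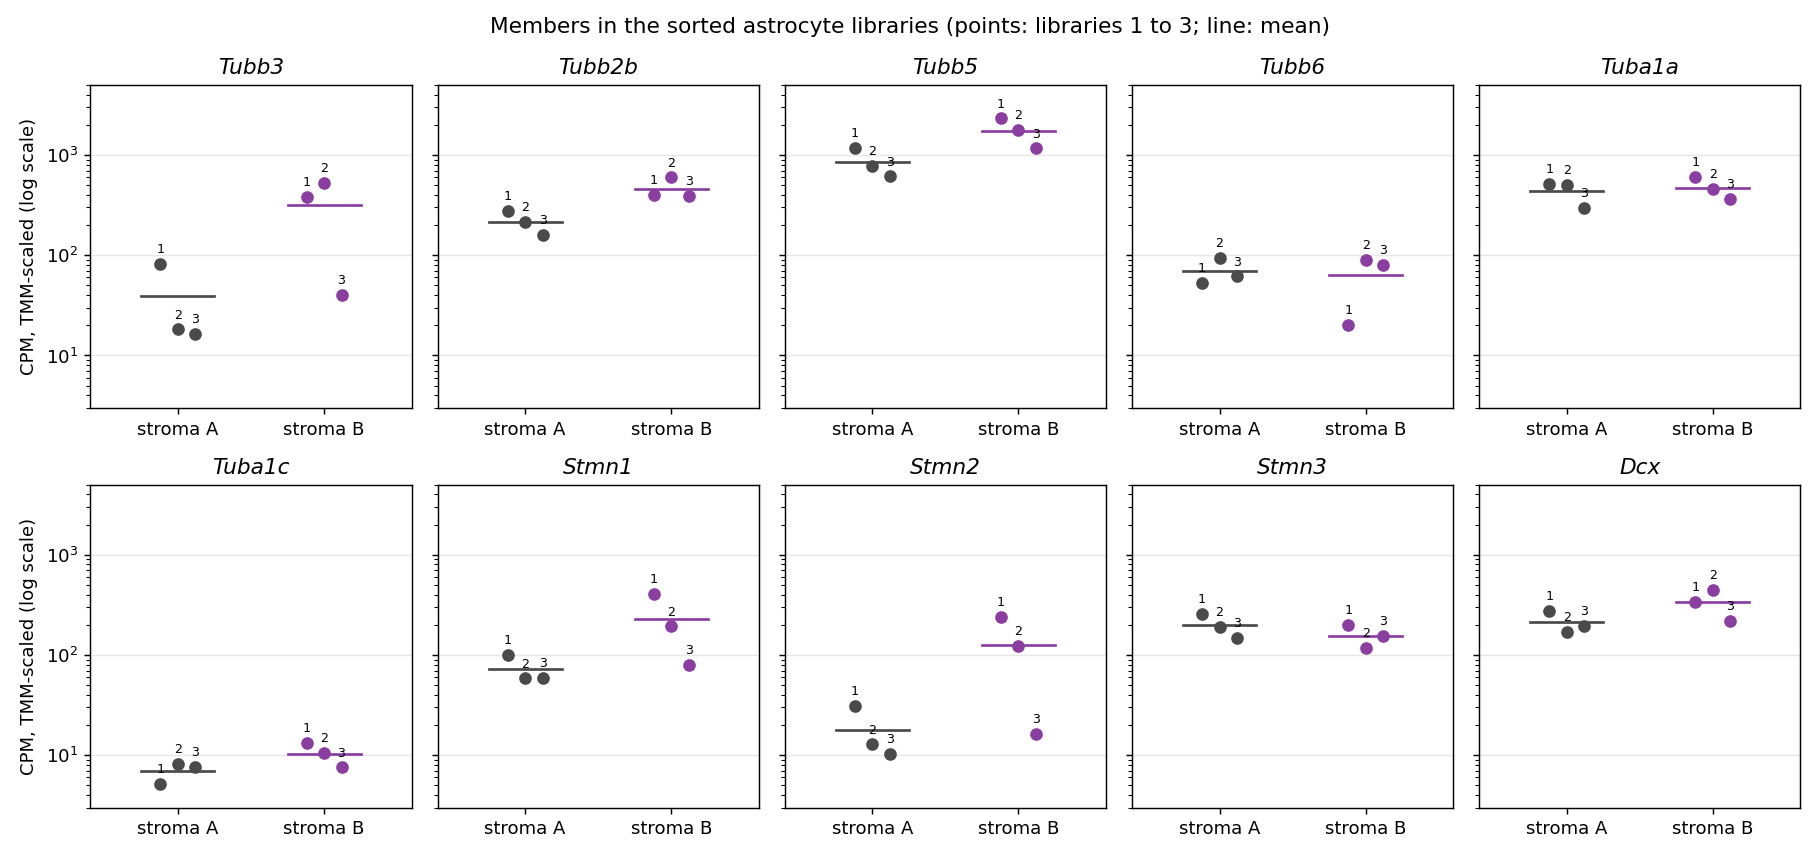
CPM of the 10 genes (log axis) in each bulk library of stroma A and stroma B; each point is 1 library and the horizontal bar is the mean of 3. Tubb2b is the gene whose groups do not overlap, and for Tubb3, Stmn1 and Stmn2 libraries 1 and 2 of stroma B stand above the other 4.

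Markers of other cells moved with these differences. The summed CPM of 8 granule lineage markers was 385, 191 and 245 for stroma A against 2258, 1716 and 469 for stroma B, and that of 12 cycling markers was 1480 to 1666 against 4295 to 4766. Differentiating neuron markers were at 383 to 543 and 398 to 1559 CPM, and granule precursor markers at 1297 to 1993 and 1969 to 3970. The mean was higher in stroma B for 9 of 12 and 9 of 10 of these markers. A large part of the precursor sum was Ccnd1, at 1402, 1140 and 970 against 613, 726 and 1445 CPM. Among the neuron markers, Gap43 was at 260, 233 and 162 against 172, 101 and 210 CPM. The libraries with high Tubb3, Stmn1 and Stmn2 were those with the highest granule lineage sums, and the part of such cells in the members' differences was not tested. Astrocyte markers were present but not alone. The 12 summed to 1324 to 2750 CPM for stroma A and 2895 to 8635 for stroma B, with none at 0. In stroma A, Slc1a2 was at 1344, 642 and 941 CPM and Aldh1l1 at 16.1, 3.58 and 22.4. The 8 oligodendrocyte precursor markers summed to 18769, 10390 and 10168 CPM for stroma A and to 1945, 2002 and 10137 CPM for stroma B. Stroma B replicate 3 thus lay near stroma A, and the part of these cells in the members' differences was not tested. Stroma A libraries also differed in marker sums of microglia and macrophages (37.4, 712 and 2955 CPM), pericytes (12.9, 286 and 1174) and endothelial cells (9.92, 219 and 603). In stroma B these were at 42.9 to 146, 32.6 to 277 and 12.4 to 46.1 CPM. In bulk RNA, fewer cells of a type and less RNA per cell cannot be told apart.

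Of the other microtubule genes, 1 was called in bulk. Tubb4b, a broadly expressed beta-tubulin also found in cilia, rose from 109, 111 and 96.4 CPM in stroma A to 218, 224 and 223 CPM in stroma B, a log2 difference of 1.07 (SE 0.17) with an edgeR quasi-likelihood adjusted p of 0.0499. It lay at the threshold and was not called with RLE factors or without the filter. Of the 9 other tubulins tested, it was the 1 called higher and 0 were called lower, and of the rest Tuba4a had a log2 difference of 1.67, Tubb4a, which is abundant in oligodendrocytes, one of -1.51, and Tubg2 one of -1.0. Tubb4a was at 983, 976 and 705 CPM against 209, 264 and 461 CPM, without overlap, next to an oligodendrocyte marker sum of 1402 to 2336 against 189 to 708 CPM whose part was not tested. The median log2 difference of this list was 0.25, and 5 of its 9 genes had an unadjusted edgeR p under 0.05 (21.8% of all genes did).

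The other 4 lists had 0 genes called in either direction. Among 4 stathmin and doublecortin relatives the largest differences were 0.92 (Dclk1) and 0.13 (Dclk2) upward and -0.34 (Stmn4) and -0.19 (Dclk3) downward, with a list median of -0.03. Among 7 folding cofactors they were 0.54 (Tbca) and 0.21 (Tbce), -0.39 (Tbcc) and -0.24 (Tbcb), with a median of 0.13. Of the genes of these 2 lists, 1 had an unadjusted p under 0.05. Among 27 microtubule-associated proteins, Map1b (1.93) and Tpx2 (1.44) were highest and Map7 (-1.48) and Camsap3 (-1.10) lowest, with a median of 0.21. Of these 27, 11 had an unadjusted edgeR p under 0.05, against 21.8% of all genes tested. Map1b was at 551, 530 and 378 against 1485, 3436 and 639 CPM, without overlap. Among 23 modifying and severing enzymes, Fignl1 (0.77) and Agtpbp1 (0.74) were highest and Ttll6 (-2.39) and Sirt2 (-1.69) lowest, with a median of -0.07. Of these 23, 4 had an unadjusted edgeR p under 0.05.

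The deposited bulk tables give each gene as reads and as FPKM, and Tuba1b and Tuba1c lay outside the usual relation between the scales. Over 10973 genes the median was 81.1 reads per FPKM unit, and 1 in 100 genes lay below 6.53. Tuba1c had 0.843 reads per FPKM (0.0547% of genes were lower) and Tuba1b 2.22 (0.228%), while Tuba1a had 16.2 (3.65%), Stmn1 10.8 and Dcx 247. Reads per FPKM depend on transcript length, and the coding sequences of Tuba1c and Tuba1a have 1350 and 1356 bases. How reads shared between genes were assigned on each scale was not tested. On the read scale Tuba1c had 45, 59 and 68 reads for stroma A against 119, 118 and 82 for stroma B. On the FPKM scale it was at 116, 65.6 and 48.4 against 123, 122 and 107 FPKM. The deposited scales therefore disagree on its level: FPKM placed Tuba1c at 76.8 ± 35.4 (SD, n = 3) and Tuba1a at 226 ± 107 (SD, n = 3) in stroma A, on this per-length scale.

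**Figure D4:**
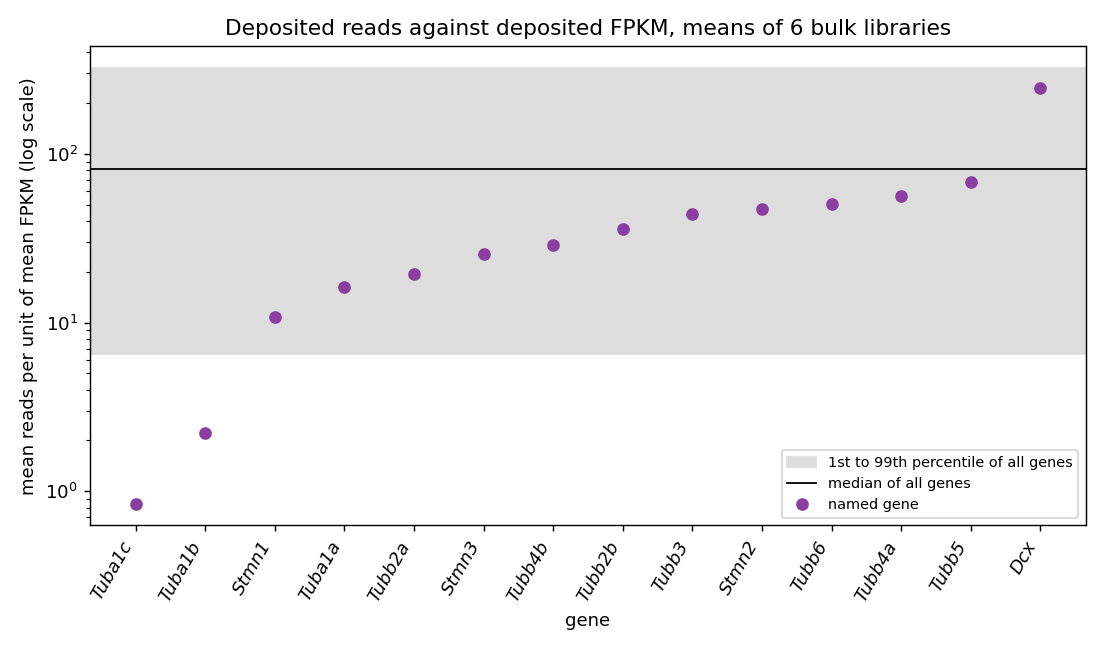
Reads per FPKM unit (mean of the 6 bulk libraries, log axis) for tubulins, stathmins and Dcx, against the median of 10973 genes (81.1) and their 1st and 99th percentiles. Tuba1c (0.843) and Tuba1b (2.22) fall below the 1st percentile of 6.53.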

How the data were processed

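Bulk libraries were deposited by the authors as read counts and, in a separate table, as FPKM per gene symbol, and single-cell libraries as matrices of UMI counts per gene and cell. Software is known from the submitters' processing notes only as names (STAR, Cell Ranger, Seurat, on build mm10), without versions or roles. The rule for reads matching several genes is not given in the sources used here. Bulk samples carry the extraction text of the single-cell protocol. The bulk column Invivo_AS4-1 was taken as the library titled AS4, and 0 columns were left unused.

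The members and the lists of other microtubule genes and markers were chosen with earlier results of these data known, and the rules that named clusters were set after the data were seen. Cells with at least 500 genes and at most 10% mitochondrial UMIs were kept, and since Scrublet's automatic threshold marked 0 cells, the top 6% of doublet scores were removed (546 primary and 470 relapsed cells). The 8548 and 7369 cells kept were clustered together with scanpy 1.11.5 and leidenalg 0.10.2 (2000 variable genes, 30 components, 15 neighbours, resolution 1), without the members and the other listed microtubule genes. A cluster was named from at least 3 raised markers. UMIs were summed per class and library, and classes were compared as ratios of CPM with exact 95% Poisson intervals (scipy 1.17.1) and a size rule of 2-fold among genes with at least 50 CPM in either class. Intervals and floors of 3 counts cover counting error only, and free RNA is not part of them.

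Bulk counts were tested with edgeR 4.0.16 in R 4.3.3 (TMM, filterByExpr, quasi-likelihood F test, Benjamini-Hochberg at 0.05), first checked on simulated counts. Bulk CPM values are TMM-scaled. The alternatives were RLE factors, DESeq2 1.42.0, no filter, each library left out, FPKM with limma 3.58.1 at offsets of 0.1 and 1 and, in single cells, another resolution, a minimum of 1000 genes per cell, doublets kept, the listed microtubule genes kept in the clustering, and means over cells. All members were named. From the other lists the named genes were, in bulk, every gene called and otherwise the 2 largest rises and falls in each list and, in single cells, the 2 with the highest primary CPM in differentiating cells. For likeness the 3 genes with the highest r were named. Other genes past 2-fold were named after their values were seen. The protein sequences of the members were not used here.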

Additional observations from a re-analysis of the deposited data

Results flagged for a closer look

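For 8 ratios between classes, the primary and the relapsed library lay on opposite sides of no difference, each with a counting interval that excluded 0 on the log2 scale. With 1 library for each tumour, the difference between them was not tested. In cycling over precursor granule cells, the relapsed minus primary difference in log2 ratio was 0.95 for Tubb3 (-0.82 in the primary and 0.13 in the relapsed tumour), 0.87 for Stmn2 (-0.67 and 0.20), 0.65 for Tuba1a (-0.09 and 0.56), 0.64 for Tubb2b (-0.34 and 0.30) and 0.21 for Stmn3 (-0.15 and 0.06). The directions stayed opposite in 5 of 5 alternatives for Tubb2b, in 4 for Tuba1a and Stmn3 and in 3 for Tubb3 and Stmn2. Without cluster 5 the primary log2 ratios were -0.10 for Tubb3, -0.36 for Stmn2, 0.24 for Tuba1a, 0.04 for Tubb2b and -0.10 for Stmn3, so for Tuba1a and Tubb2b the directions were then the same.

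Among glia, Tubb2b in astrocyte-like over precursor cells differed by 0.64 (-0.38 and 0.26). In oligodendrocyte precursor-like over precursor cells, Tubb2b differed by 2.36 (-1.39 and 0.97) and Tuba1a by 1.56 (-1.12 and 0.44). These 3 stayed opposite in 5 of 5 alternatives, on 34 relapsed oligodendrocyte precursor-like cells and 64 astrocyte-like cells.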

How the results depend on the processing

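In bulk, the count of members called was 0 with edgeR, 4 with DESeq2 and 0 to 3 when 1 library was left out (3 without stroma B replicate 3). Other microtubule genes called numbered 1 with edgeR, 0 with RLE factors, 8 with DESeq2, 0 without the filter, 0 on FPKM with an offset of 0.1, 0 to 8 when 1 library was left out (8 without stroma B replicate 3) and 0 without both libraries numbered 5. Genes called among all tested were 94 with edgeR, 1797 with DESeq2, 227 without the filter and 285 on FPKM with an offset of 1. Without stroma B replicate 3 they were 1342, and the cause of these differences was not tested. They were 0 in every other fit with 1 library left out and 0 without both libraries numbered 5. In those fits the counts of 0 thus held for all genes and not for the listed genes alone. The sign of the Tubb6 difference turned to 0.010 without the filter, 0.15 without stroma A replicate 2, 0.32 without stroma B replicate 1 and 0.21 without both libraries numbered 5 (range -0.44 to 0.32 when 1 library was left out). That of Tuba1a turned to -0.11 without stroma A replicate 3, -0.07 without stroma B replicate 1 and -0.32 without both (range -0.11 to 0.31). The median of all genes moved to 0.30 and 0.24 on FPKM with offsets of 0.1 and 1, and to -0.15 without the filter. No paired analysis was possible because the stroma A and stroma B titles share 1 number only.

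In single cells, the count of members at least 2-fold higher in differentiating than in precursor cells was 5 in both tumours under each alternative run, except 6 in the relapsed tumour at Leiden resolution 2, where Tubb5 joined (log2 ratio 1.07). In cycling cells of the relapsed tumour, 2 members passed at Leiden resolution 2, Tubb5 with Tuba1c. Between the tumours, 1 member (Stmn2) passed in precursors with means over cells and 1 with doublets kept, 3 rather than 6 passed in astrocyte-like cells with means over cells, and 5 rather than 3 in microglia and macrophage-like cells with doublets kept. Among the classes described, depth limits primary astrocyte-like and relapsed microglia and macrophage-like cells most: 3 UMIs amounted to 8.79 CPM in primary astrocyte-like and 8.43 CPM in relapsed microglia and macrophage-like cells, against 0.159 CPM in primary precursors.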
